A study of Homo sapiens with 2 samples.

Results

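Chromosome 19 carried 678 of the 49245 interactions (1.38%) that TCF3::HLF-HiChIP listed in HAL-01 cells, and these are described here. Members were all listed interactions whose bins lie on chromosome 19, and they joined 839 of the 53535 5-kb anchor bins of the whole list, an anchor being a bin with at least 1 listed interaction. HAL-01 is an established human B-cell precursor leukemia line with the translocation t(17;19). The cells stably expressed Cas9GFP, were edited with an sgRNA against wild-type TCF3 and were selected for a stable knockout, and chromatin was pulled down with an antibody to E2A, the product of TCF3. Both replicates belonged to this 1 group and were merged by the authors before interactions were called, so no control, untreated or parental sample enters and no value has a replicate error.

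HiChIP ligates DNA ends that lie close together in the nucleus and enriches the ligated pairs that carry a chosen protein, so that a contact count is the number of read pairs joining a pair of bins. The fusion keeps the activation domains of TCF3 and binds DNA through the basic leucine zipper of HLF, a factor of the PAR family, which recognizes short palindromic sites. Chromosome 19 is known for its high density of genes, its clusters of KRAB zinc finger genes and its tandem families of immune receptors, and its short arm carries TCF3 itself.

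The sites that carry the main pattern are shown first. The HLF motif was searched as exact TTACGTAA or TTATGTAA on both strands, and TTATGTAA reads TTACATAA on the opposite strand. Sequences are the plus strand of hg38 with the motif in capitals. The first is part of a motif array in an intron of ADGRE2, in the anchor bin with the most interactions of the chromosome, chr19:14750001-14750160:
ADGRE2 array: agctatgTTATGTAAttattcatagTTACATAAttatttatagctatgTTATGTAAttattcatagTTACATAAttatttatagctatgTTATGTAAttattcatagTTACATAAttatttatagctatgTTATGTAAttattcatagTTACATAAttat
The others come from 6 further anchor bins with 9 to 11 interactions, chosen among those that held a single copy of the motif. They lie in an intron of ZNF682 (chr19:20038701-20038760), in an intron of a coding gene with no symbol (chr19:12412011-12412070), between genes near INAFM1 (chr19:47283490-47283549), upstream of ZSCAN18 (chr19:58118949-58119008), between genes near GNA15 (chr19:3165541-3165600) and upstream of CCL25 (chr19:8052159-8052218):
ZNF682 intron: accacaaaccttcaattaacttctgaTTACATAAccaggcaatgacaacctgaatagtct
gene with no symbol: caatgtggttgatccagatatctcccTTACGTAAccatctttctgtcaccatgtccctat
near INAFM1: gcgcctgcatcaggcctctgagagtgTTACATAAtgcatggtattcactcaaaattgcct
upstream of ZSCAN18: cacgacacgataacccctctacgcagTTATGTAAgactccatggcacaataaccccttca
near GNA15: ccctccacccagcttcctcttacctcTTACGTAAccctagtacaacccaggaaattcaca
upstream of CCL25: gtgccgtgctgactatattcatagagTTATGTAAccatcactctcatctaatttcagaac

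Chromosome 19 had few interactions for its genes. Its 678 interactions (95% exact Poisson interval 627.9 to 731.0) were the fewest of the 23 chromosomes, below the 703 of chromosome 21, which is shorter. Per Mb, chromosome 19 had 11.6 (10.7 to 12.5) and ranked 22 of 23, with the other chromosomes between 7.15 on X and 24.0 on chromosome 20. It nonetheless held the densest set of protein-coding genes, 25.2 per Mb against 14.2 on chromosome 17, the next. Set against bins that hold a protein-coding start site, it had 31.8 interactions per 100 such bins, and every other chromosome had between 85.0 and 384.8. Its G+C content of 47.9% was also the highest of the 23, and the part of base composition in the low number was not tested. These intervals cover counting error only, since duplicate read pairs were not removed and interactions that share a bin are not independent.

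The interactions of chromosome 19 had a short median distance and lacked very large counts. Bins lay a median of 215 kb apart (order-statistic 95% interval 185 to 245) against 255 kb (250 to 255) on the other chromosomes, and 24.8% spanned under 100 kb against 19.7%. Chromosome 22 had the same median of 215 kb, and chromosomes 16 and 17 had 225 kb. The share over 1 Mb was 14.7% against 13.7%, a difference of 1.09 percentage points with an interval of -1.40 to 3.98. Contact counts ran from 7 to 92 read pairs with a median of 23 (23 to 24), beside a median of 24 elsewhere. Within 50 to 100 kb the medians were 24 and 26, and beyond 1 Mb both were 21. Contact counts of at least 40 made up 4.28% of the interactions against 7.55%, a difference of -3.27 points (Newcombe 95% interval -4.58 to -1.46). The largest contact count, 92, was the lowest maximum of any chromosome, where the others reached 96 to 615.

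**Figure D1:**
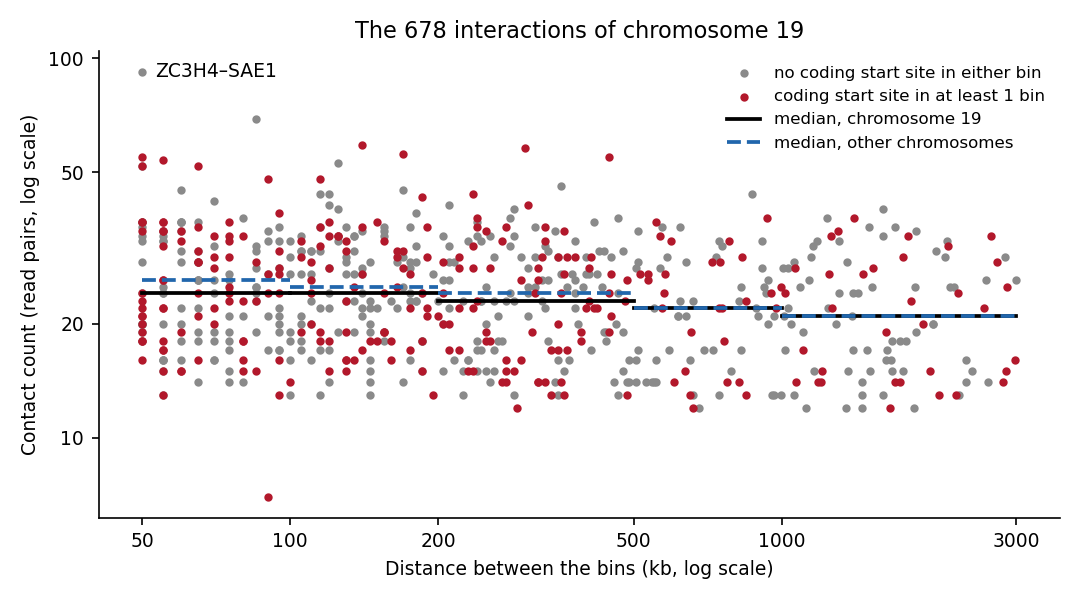
Contact count against distance between the bins, both on log scales, for each of the 678 interactions of chromosome 19, red where at least 1 bin holds a coding start site. Horizontal lines are medians per distance class, which run from 24 to 21 on chromosome 19 and from 26 to 21 on the other chromosomes; the pair of ZC3H4 with SAE1 (92) lies above all others.

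Interactions were spread unevenly along the chromosome. In windows of 1 Mb the median was 19 interaction ends, and the 5 richest windows held 325 of all 1356 ends (24.0%). The window from 2 to 3 Mb had the most, 103 ends in 56 anchor bins, with PLEKHJ1, SF3A2, DOT1L, MKNK2 and GNG7 among its genes. Windows at 46 Mb (63 ends), 43 Mb (60), 14 Mb (50) and 51 Mb (49) followed. Gene number followed this order only loosely. Over 58 windows, the partial last one left out, the Spearman correlation of ends was 0.310 with coding genes. It was 0.198 with ZNF genes and 0.0394 with the share of bins holding the HLF motif. Without the windows at 25 and 26 Mb, which held no end and no coding gene, the values were 0.237, 0.144 and -0.0662. All windows share 1 library, and neighbouring windows share interactions. The longest stretch without an anchor, 2910 kb at the centromere, held no coding start site and was bridged by a single interaction of 26 read pairs. Another stretch without an anchor, 1140 kb long, held the start sites of 35 coding genes and was also bridged by a single interaction.

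**Figure D2:**
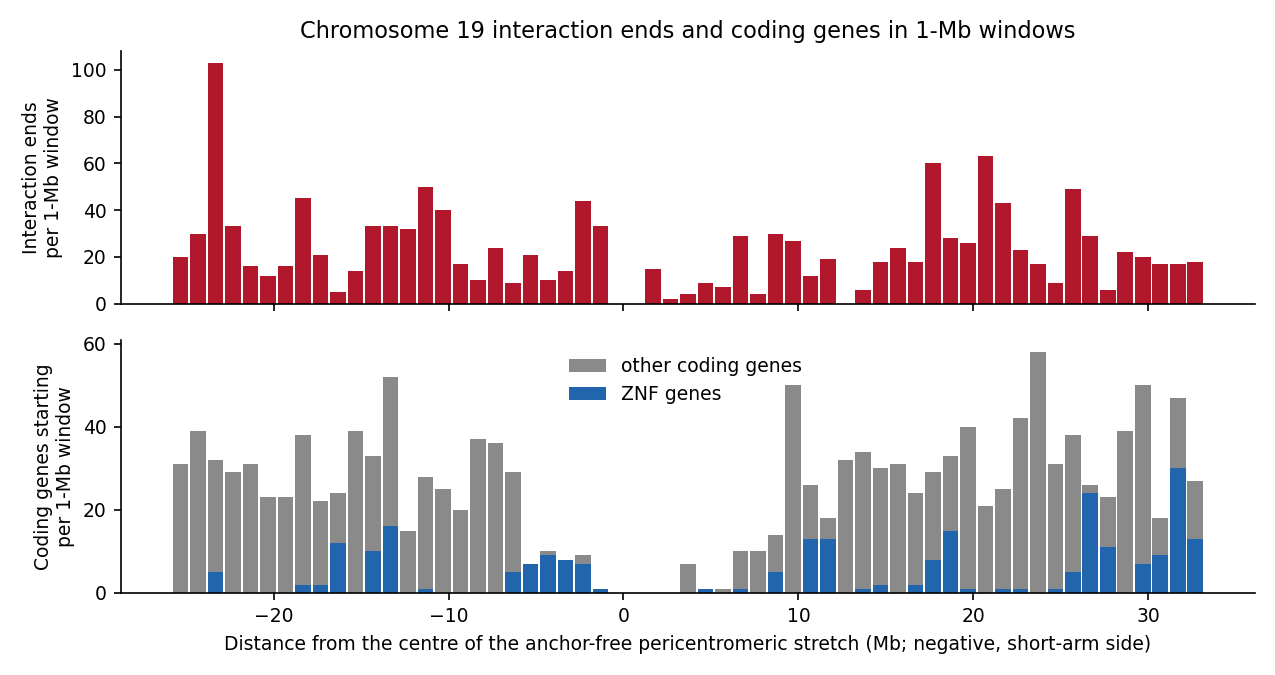
Interaction ends (top) and coding genes that start (bottom, ZNF genes in blue) in each 1-Mb window of chromosome 19, by distance in Mb from the centre of the anchor-free stretch at the centromere. The tallest bar, 103 ends, belongs to a window with 32 coding genes, and 3 windows have no end, 1 of which holds 32 coding genes.

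Start sites of genes were frequent in these interactions, as they are in the chromosome's bins in general. At least 1 of the paired bins held a protein-coding start site in 273 of 678 interactions (40.3%, Wilson interval 36.6 to 44.0), against 15.9% on the other chromosomes, a difference of 24.4 points (20.8 to 28.2). Chromosomes 22 and 17, the next in this share, had 32.8% and 26.5%. Both bins held one in 38 interactions (5.60% against 1.04%). Coding start sites lay in 20.3% of the anchor bins and in 18.1% of the chromosome's other bins, and the difference of 2.18 points had an interval of -0.509 to 5.12. It came to 8.40 points (4.94 to 11.7) where start sites within 10 kb of a bin were counted, a definition added with the data in view. On the other chromosomes the shares were 7.62% and 4.97%, a difference of 2.64 points (2.41 to 2.88). Counting genes in place of bins, 175 of the 1432 genes with a coding transcript (12.2%, 10.6 to 14.0) had an interaction from a start-site bin, against 20.3% elsewhere, where single chromosomes ranged from 10.9% on X to 29.3% on chromosome 22. An interaction from a bin within 10 kb of a start site was listed for 536 of the 1432 genes (37.4%).

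The HLF motif was most frequent in the anchors of chromosome 19 that had many interactions, as it was on the other chromosomes. Over all anchor bins, 182 of 839 held the motif (21.7%) against 16.0% of the chromosome's other bins, a difference of 5.69 points (2.94 to 8.68). The same difference elsewhere was 0.824 points (0.409 to 1.24). Among the 47 anchor bins with 5 or more interactions, 27 held it (57.4%, 43.3 to 70.5), against 13 of 84 flanking bins 25 kb away that were no anchors (15.5%), a difference of 42.0 points (25.1 to 56.4). Anchor bins with 2 to 4 interactions stood at 28.8% against 16.8% in their flanks (difference 12.0 points, 2.91 to 21.5). For bins with 1 interaction the shares were 17.8% and 14.7%, and their difference of 3.09 points had an interval that included 0 (-0.385 to 6.74). On the other chromosomes, 53.8% of anchor bins with 5 or more interactions held the motif against 27.9% of their flanks, a difference of 25.9 points (24.2 to 27.7). With 2 to 4 interactions the difference there was 7.23 points (5.85 to 8.62), and with 1 it was -0.112 points (-0.672 to 0.451). Whether the differences on chromosome 19 exceeded those elsewhere was not tested. Interactions were called with MACS2 peaks of the same pulldown as reference, and the peak status of the bins was not compared. On chromosome 19, mean G+C was 48.8% in the 47 bins and 48.9% in their flanks. Coding start sites lay in 23.4% and 22.6% (difference 0.785 points, -13.2 to 16.6). Chromosome 19 had the lowest share of bins with the motif of any chromosome, 16.4% against 30.9% over the others. Of its interactions, 55.8% held the motif in at least 1 bin against 66.9% elsewhere.

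**Figure D3:**
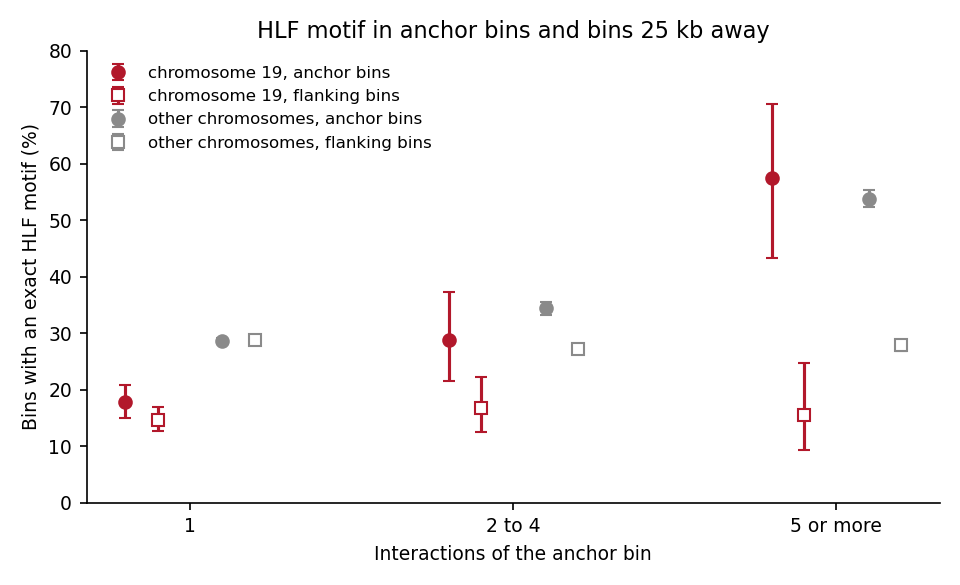
Percent of 5-kb bins with an exact HLF motif, by the number of interactions of the anchor bin; filled circles are anchor bins, open squares flanking bins 25 kb away, red chromosome 19, grey the other chromosomes, and bars Wilson 95% intervals. On chromosome 19 the anchor bins run from 17.8% to 28.8% to 57.4%, and their flanking bins stay between 14.7% and 16.8%.

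Few anchors on chromosome 19 had many partners. Of its 839 anchor bins, 667 (79.5%) took part in 1 interaction, 47 (5.60%) in 5 or more and 7 (0.834%) in 10 or more, where the other chromosomes had 8.64% and 2.12% of the last kinds. The 47 bins took part in 342 of the 678 interactions (50.4%), and on the other chromosomes bins with 5 or more took part in 76.5%. Only 3 interactions joined a pair of such bins. Linked through shared bins, the 678 interactions fell into 162 separate groups, of which 40 were a lone pair, and the largest joined 24 bins over 1580 kb around APC2, ATP8B3 and GADD45B. Each of the 7 most used bins held the motif.

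The most used anchor lay in an intron of ADGRE2, an adhesion G protein-coupled receptor of myeloid cells. It held part of the largest HLF motif cluster of the 23 chromosomes searched in hg38, by the 100-base rule given below. The cluster of which a part is printed above, chr19:14749431-14750156, held 31 exact TTATGTAA in 726 bases, 18 on the plus and 13 on the minus strand, and 10 of its 17 plus-strand steps were 41 bases long. Counted as matches no more than 100 bases apart, 76 clusters of at least 4 motifs occurred on these chromosomes. The ADGRE2 cluster was the single one on chromosome 19. The next held 21 motifs on chromosome 21 (16970889 to 16971448), with another of 11 motifs close by (16971739 to 16971996). A wider gap, which could join that pair and change the order, was not tried. Of the 76, 17 touched an anchor bin, 9 a bin with 5 or more interactions and 4, the ADGRE2 cluster included, a bin with at least 12. Anchors made up 7.18% of the bins of chromosome 19 and a median of 9.22% on the other chromosomes (4.16 to 13.1). Among anchor bins, 5.60% and 8.64% had 5 or more interactions. A cluster could touch more than 1 bin, and whether the counts exceed such shares was not tested. A bin border cuts the ADGRE2 cluster. The 8 motifs beyond it fell in the bin with 12 interactions (14750001 to 14755000), and the bin with the other 23 (14745001 to 14750000) had none listed. Both bins carried a similar share of 31-base words that recur on chromosome 19, 20.7% and 22.6%. These shares cover the whole 5-kb bins and not the array alone. Reads of the array could have been placed in either bin, which was not tested. The number of repeat units is that of the reference, and that of HAL-01 was not measured.

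The 12 partners of the ADGRE2 bin lay 5 on one side and 7 on the other, 60 to 2670 kb away. The largest contact count was 44 (exact Poisson interval 32.0 to 59.1), 120 kb away near OR7A17, an olfactory receptor gene. Counts of 42 and 37 led to bins in OR7C1 and 36 to CLEC17A, which encodes a lectin of B cells. Over longer distances it reached MVB12A, of the sorting machinery of endosomes, with 34 read pairs over 2670 kb (23.5 to 47.5) and CACNA1A, a calcium channel gene, with 33 over 1310 kb. The median of all listed interactions at exactly these distances was 22 in both cases. Few interactions share an exact distance that long, for example 13 at 2610 kb and 30 at 1265 kb. The start site of MVB12A and that of OR7C2 (30 read pairs) were the only ones among the 12 partner bins, and no partner had another interaction. The motif lay in 1 of the 12, beside 16.4% of all bins of the chromosome.

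The remaining bins with 10 or 11 interactions fell into a promoter of the dense short arm, zinc finger clusters and an intergenic site. The bin with the start sites of PLEKHJ1 and of SF3A2, a subunit of splicing factor SF3a, had 11 interactions within 405 kb. Among them, 5 led to start sites. These were LSM7 and SPPL2B with 48 read pairs (35.4 to 63.6), AP3D1 and DOT1L with 37, TIMM13 with 36, LMNB2 with 28 and TMPRSS9 with 18. DOT1L encodes a histone methyltransferase and LMNB2 a lamin of the nuclear envelope. None of its 11 partners held the motif.

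Among the zinc finger genes, the bin at 12410001 had 11 interactions, with 52 read pairs to a bin in ZNF709 50 kb away. Smaller counts included ZNF490 (29), ZNF44 (29), ZNF20 (25), ZNF442 (19) and ZNF136 (16). Outside the zinc finger genes, 28 read pairs led over 1065 kb to the start-site bin of CCDC159, RAB3D and TMEM205. The ZNF682 start-site bin had 10 interactions, none of them to another coding start site. Its largest count was 58 read pairs (44.0 to 75.0), to a bin 300 kb away whose nearest coding gene, ZNF486, lies 134.5 kb off. A bin in ZNF83 also had 10, with counts of 30 and less and a partner in ZNF610 at the top. The start-site bin of ZSCAN18 had 9 of its 10 partners on one side, toward the centromere, and 6 of the 10 held the motif. In the windows at 57 and 58 Mb, 22.5% and 13.1% of bins held it, and the difference was not tested. The ZSCAN18 bin lies at 58115001 to 58120000 on a chromosome of 58.6 Mb, so the chromosome end limits partners on the other side. Its start-site partners were ZNF547 (29), DUXA (24) and ZNF671 (18). The bin near INAFM1 led with 38 read pairs to a bin near AP2S1. Bins with 9 interactions lay at CCL25, a chemokine gene, near GNA15, a G protein subunit of blood cells, in XRCC1, a scaffold of DNA repair, and in LYPD5, among others. The LYPD5 bin and one near CYP4F8 held no HLF motif, and the other bins with 9 interactions did.

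**Figure D4:**
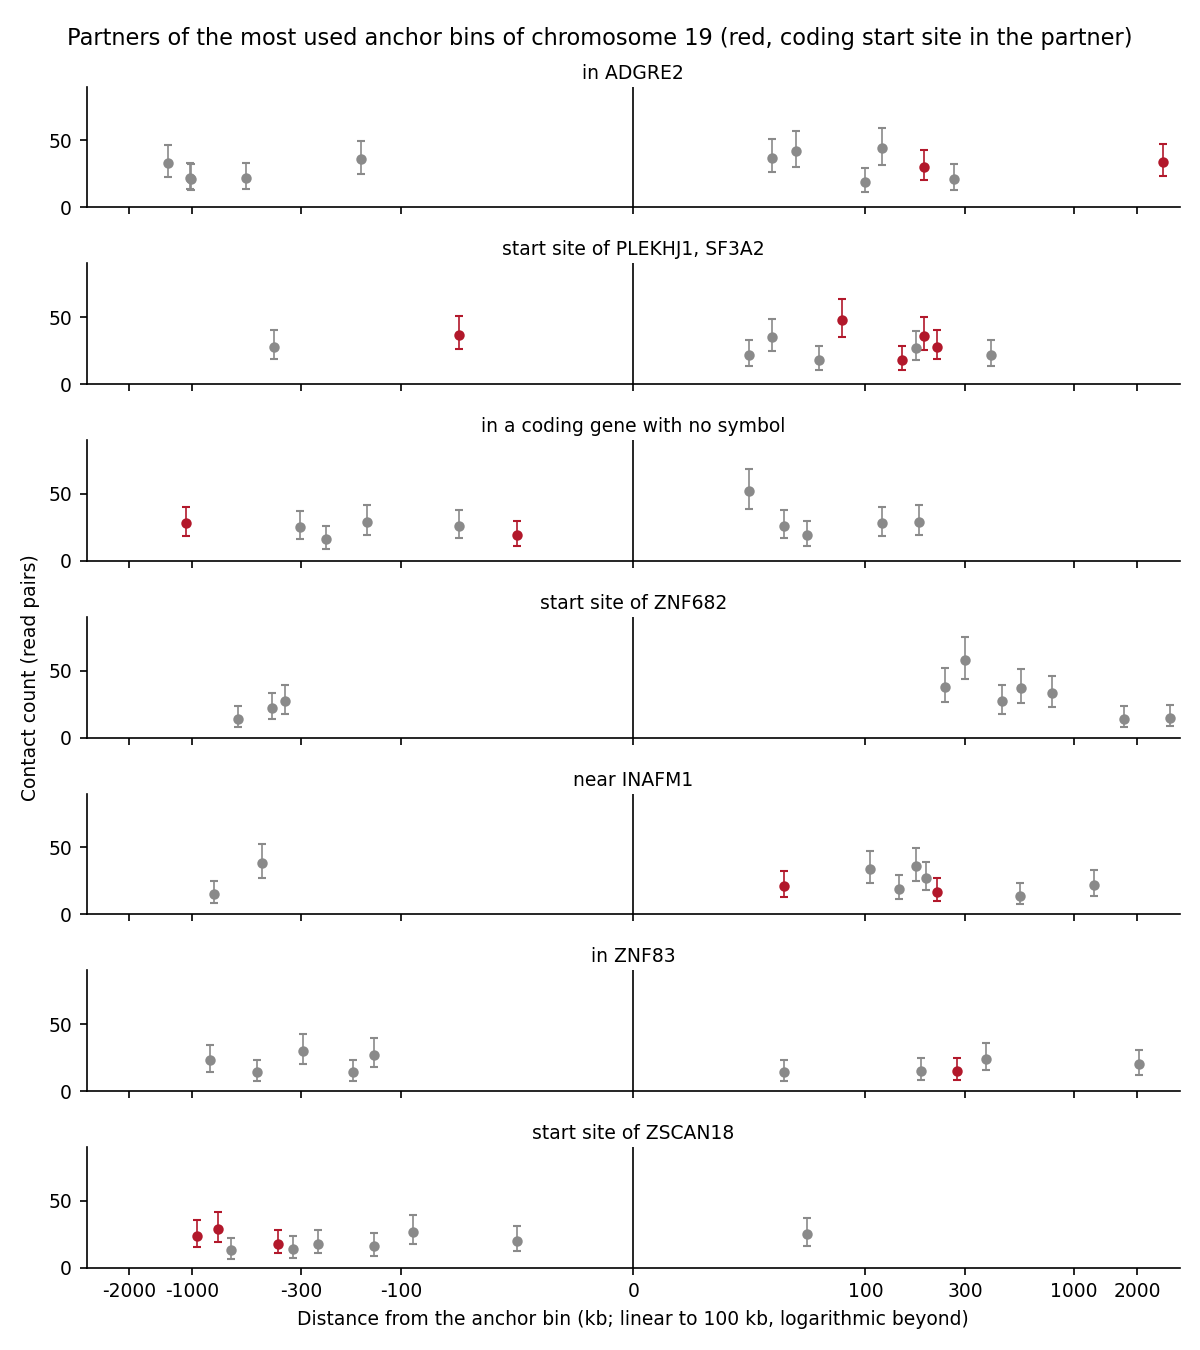
Contact counts of every listed partner of the 7 anchor bins of chromosome 19 with 10 or more interactions, by signed distance from the anchor (linear to 100 kb, logarithmic beyond); bars are exact Poisson 95% intervals and red marks partners with a coding start site. The ADGRE2 bin reaches 2670 kb, the PLEKHJ1 and SF3A2 bin stays within 405 kb, and 9 of the 10 ZSCAN18 partners lie on the side away from the nearby chromosome end.

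The strongest single contact joined bins in neighbouring genes, neither of which held a coding start site. A bin in ZC3H4, which limits noncoding transcription, and a bin in SAE1, a subunit of the SUMO-activating enzyme, shared 92 read pairs over 50 kb (74.2 to 112.8), with a P value of 1.33e-67. The median over all 1393 listed interactions at 50 kb was 27, so the count was 3.41 times that median. Among all 49245 interactions its rank was 101 in P value and 140 in contact count. The ZC3H4 bin (47075001 to 47080000) held the HLF motif and the SAE1 bin did not. A coding start site of ZC3H4 lay in the bin at 47085001, within 10 kb.

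Start sites entered other high ranks. CRTC1, a CREB coactivator, and the start-site bin of UPF1, the helicase of nonsense-mediated decay, shared 59 read pairs over 140 kb (44.9 to 76.1). INSR, the insulin receptor gene, had 56 to the start of ARHGEF18 over 170 kb. XRCC1 had 55 to the start of ZNF230 over 445 kb, where the median at that distance was 23, and 54 to the start of ZNF428 over 55 kb. KANK2 had 55 from SPC24, a kinetochore gene, over 50 kb. CCL25 had 52 to each of a pair of bins of FBN3. The 10 smallest P values also included DNM2 with C19orf38 (53), a second pair between INSR and the ARHGEF18 side (45), a bin near CYP4F8 with EPS15L1 over 870 kb (44) and a pair in a gene-poor stretch of the long arm, 355 kb apart (46), whose nearest coding gene, UQCRFS1, lay 1570.3 kb off. By sum, a pair between the TLE5 and GNA15 sides (89) was among the 5 largest.

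Of 37 genes on the list of transcription factors and chromatin proteins, 6 had an interaction from a start-site bin (16.2%, 7.65 to 31.1), beside 12.2% of all coding genes of the chromosome, and the medians of their largest counts were 30 and 28 read pairs. LYL1, a basic helix-loop-helix factor of blood progenitors, had 4, the largest with 37 read pairs (26.1 to 51.0) to a bin by IER2 over 55 kb. Another of the 4 joined it to a bin 5.5 kb from NFIX over 115 kb, with 32 read pairs. FOSB, a subunit of AP-1, met ERCC1 with 35, DOT1L met PLEKHJ1 and SF3A2 with 37, and MLLT1, a reader of acylated histones, met a bin in INSR with 25 over 995 kb. ERF, a repressor of the ETS family, had 22, and SMARCA4, an ATPase of the SWI/SNF complex, had 18 to KANK2. The SMARCA4 bin, at 11030001, holds a start site inside the gene, which begins at 10960932. At the distances of these pairs, the median of all listed interactions was 26 for FOSB, DOT1L and ERF and 23 for SMARCA4. NFIX, a nuclear factor of blood progenitors, had no interaction from a start-site bin and 9 from its body. The bin at 13035001 in NFIX and the bin 5.5 kb upstream of the gene had 6 each, with 37 read pairs between the pair (26.1 to 51.0), and neither held the HLF motif.

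Of 24 leukocyte surface and signalling genes, 3 had such an interaction (12.5%). PIK3R2, a regulatory subunit of PI 3-kinase, had 35 read pairs to SIN3B over 1305 kb. CD320, the receptor for transcobalamin, had 28 to CCL25, and CD70, a ligand of the TNF family, had 3 interactions with 23 at most, to a bin near TNFSF9. Of the B-cell genes CD79A and CD22, named here after their values were seen, neither had one from a start-site bin. Bins within 10 kb of a start site had 4 for CD79A and 3 for CD22. The bin at the end of CD79A that also holds a start site of ARHGEF1 had 4, the largest with 31 read pairs. CD22 begins at 35319261, and the bin from 35320001 had 38 read pairs to a bin near LSR over 80 kb. Of 14 cell cycle, apoptosis and repair genes, 2 had an interaction from a start-site bin, namely ERCC1 with 8 and GADD45B with 1 of 15 read pairs.

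The gene families of chromosome 19 are set beside the 12.2% of all its coding genes and a median of 28 read pairs for their largest interaction. Of 248 ZNF genes, 25 had an interaction from a start-site bin (10.1%, 6.92 to 14.5), against 12.7% of the 1184 other coding genes, with a median of 29 read pairs. ZNF230 had 14, the most of any coding gene of the chromosome, and ZNF614 had 1, of 34 read pairs over 75 kb. Of 10 SIGLEC genes, sialic acid-binding receptors of leukocytes, 5 had one (50%, 23.7 to 76.3), with a median of 23 read pairs. SIGLECL1 had 6 of them with 31 read pairs at most, and the start-site bins of SIGLEC7 and SIGLEC6 met with 19 over 390 kb. That 1 interaction counts for both genes. Both lie in the window at 51 Mb, among the 5 richest of the chromosome (49 ends). The interval treats neighbouring genes as independent, which they are not. The other families stood at 2 of 12 CEACAM genes, 1 of 10 LILR genes, 1 of 12 CYP genes, 4 of 20 OR genes and 0 of 6 KIR and 0 of 10 PSG genes.

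TCF3 had no listed interaction. No anchor lay in the gene (chr19:1609291-1652615, minus strand), and none of its 10 bins held an HLF motif. Both were uncommon in the bins of chromosome 19, where 7.18% were anchors and 16.4% held the motif. In the 1-Mb window that holds TCF3 the motif share was lower than on the whole chromosome. With 10 bins, few or none of either kind would be found at such shares, and a difference from them was not tested. The guide site was a coding exon of TCF3, chr19:1615330-1615349 on the plus strand, shown with the PAM in capitals:
TCF3 guide site: gcaggatgagcagtttggtcTGG
The anchors nearest to the gene lay 154.3 kb away in APC2 and 107.4 kb away by ONECUT3, and the stretch of 305 kb between them was longer than 97.4% of the anchor-free stretches of the chromosome. Interactions nevertheless bridged the gene. There were 7, with 12 to 33 read pairs and a median distance of 910 kb, among them SBNO2 with MKNK2 (33), the start sites of APC2 and ATP8B3 (30) and a bin near GZMM with one near GNA15 (26). Over 2929 positions every 20 kb along the chromosome, the median was 5 and the maximum 23, and 70.9% had fewer than 7. Within 1.6 Mb of the gene, 15 interactions lay below and 60 above it. The list joins bins of 1 chromosome each, so contacts across the t(17;19) junction could not be seen in it.

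Tandem gene families can place reads in either copy. None of the 678 interactions joined bins that share 500 or more 31-base words, and 0 of 678 allows a share of up to 0.442% by a limit of 3 counts, or 0.563% by the upper Wilson bound. A single pair, near DPP9 and FEM1A with 45 read pairs, shared at least 100 such words. At least 1 shared word was common, 59.1% against 24.2% on the other chromosomes. The share of words that recur on the chromosome had a median of 14.3% (13.4 to 15.2) in anchor bins and 15.3% (15.1 to 15.5) in the other bins of chromosome 19. The centromere divided the interactions into 342 on the short-arm side (14.0 per Mb, median 24.5 read pairs) and 335 on the long-arm side (10.7 per Mb, median 23). A coding start site lay in at least 1 bin of 36.8% and 43.9% of them, and an HLF motif in 20.8% and 22.6% of their anchor bins.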

How the data were processed

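HiChIP was done with MNase on 2 replicates of 1 group, which the authors merged. They trimmed reads with Trim Galore 0.6.6, aligned them to hg38 with BWA-MEM, extracted pairs with pairtools without removing duplicates, and called interactions with FitHiChIP (version not given in the sources used here) between 5-kb bins 50 kb to 3 Mb apart, with MACS2 peaks as reference, at a q-value under 0.01, then merged nearby contacts. The deposited contact counts and their sums over merged groups are raw counts of read pairs. The deposited p-values and q-values come from the distance and coverage background of FitHiChIP. The deposited fraction of significant bin pairs per merged group was not analysed further. A pair not listed is not a pair without contacts, and the 16759 read pairs in the listed contacts of chromosome 19, of 1268490 in the whole list, are no measure of depth.

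Start sites came from GENCODE release 44, and sequence from hg38, in which 0 listed bins passed a chromosome end. Motifs and 31-base words were counted with Python 3.11.15, pyfaidx 0.9.0.4 and samtools 1.23.1. Shares have Wilson, differences Newcombe, counts exact Poisson and medians order-statistic intervals, all at 95% (scipy 1.17.1). The scripts were checked on simulated data. No test between conditions was possible. Genes named are those at the 10 smallest P values, 10 largest contact counts, 5 largest sums and the most used anchor bins, with TCF3, NFIX, ZNF614 and the members of the gene lists and families. Some results under this rule are not reported here. Members, lists and measures were chosen with earlier results of these data known. Alternatives were the q-value, contact count, distance, motif, start-site window and shared-word settings.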

Additional observations from a re-analysis of the deposited data

How the results depend on the processing

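All values rest on 1 merged library, so replicate spread could not be given and no replicate could be left out. No paired analysis was possible because the list pools both replicates of 1 group. Intervals leave out biological variation, and depth limits the list to contacts past the q-value threshold. Of 42 alternative values for 13 results, 25 stayed within the reported value's interval (shares, medians and differences), within 1.5 times of it (counts) or at the same rank, 17 did not and 0 reversed. The number of interactions moved to 449 (7.66 per Mb) at a q-value under 1e-05 and to 448 (7.64 per Mb) at a contact count of at least 20. By alternatives chosen after seeing the data, the rank in interactions per Mb stayed at 22 under each of those filters and was 23 per bin with a coding start site. Merged groups alone had a median distance of 107.5 kb and a median contact count of 30, and the median count was 25 at a q-value under 0.001 and 28 under 1e-05. The start-site share was 86.9% within 10 kb and 58.6% with all gene types. The motif share of anchor bins was 1.79% for TTACGTAA alone. Interactions bridging TCF3 numbered 4 up to 1 Mb. The ZC3H4 and SAE1 pair ranked 4 by sum. The following alternatives were also chosen after seeing the data. The motif difference between anchor bins with many interactions and their flanks was 78.6 points for 10 or more interactions (34.5 to 92.4), 10.4 points for TTACGTAA alone (1.40 to 22.9), 32.9 points for 4 or more, 48.1 points with flanks at 50 kb and 51.6 points at a q-value under 1e-05. The start-site difference between anchors and other bins was 8.40 points within 10 kb (4.94 to 11.7), and its interval included 0 for both other definitions.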
